A study of Mus musculus with 2 samples.

Results

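The transcription factors described here pattern the limbs, somites, head and visceral mesoderm of the embryo and lie outside the Hox clusters. They were the genes whose probe sets carried 1 of 50 listed symbols as their only platform gene symbol. All 50 listed genes were measured, by 51 of the 35557 probe sets, and they are 50 of 19938 genes on the arrays. The samples were primary fibroblasts cultured from mouse embryos (MEFs) at 13.5 days post coitum, of the genotypes MatDup.dist7 and PatDup.dist7, and both cultures were kept in the same serum-containing medium. In MatDup.dist7 both copies of distal chromosome 7 come from the mother, and in PatDup.dist7 both come from the father. Each genotype was measured on 1 array, without replicates, and the sources used here do not give the strain, the sex or the number of embryos behind a culture.

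Patterning transcription factors mark where a cell came from along the body and limb axes. Fibroblasts in culture are known to keep part of this positional expression, so a MEF culture, which is grown from minced embryos, can hold cells with limb, trunk, head and visceral programmes side by side. T-box, homeobox, paired box, forkhead, GATA and basic helix-loop-helix proteins bind DNA through different domains, and many of them act in pairs of related genes with overlapping roles. On whole cultures, fewer cells of a type and less RNA per cell cannot be told apart.

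The deposited values are intensities on a linear scale. Each difference is the MatDup.dist7 level minus the PatDup.dist7 level on log2(intensity + 16), a scale that compresses the change of weakly detected genes, and a difference of 1 is 2-fold on that scale. The values given for a gene in each genotype are intensities, and the signed numbers after them in parentheses are these log2 differences. With 1 array per genotype, no difference could be tested against the spread between cultures, and precision is limited by the array number. The spread between probe sets of the same gene gives a scale for agreement within the arrays. Its standard deviation was 0.43 in log2 difference over 1931 probe sets of 724 genes. Only genes above the 50th percentile of all values on at least 1 array were used, so it does not cover weaker genes. Of the 50 members, 28 had a difference smaller than this standard deviation. Among them are Alx1, Pax7 and Hand2, weaker genes that it does not cover. As a check of the labels, Cdkn1c, a maternally expressed gene of distal chromosome 7, had an intensity of 1109 in MatDup.dist7, against 0.0132 in PatDup.dist7. Igf2, its paternally expressed counterpart in the same region, had 7.48 in MatDup.dist7, against 1013 in PatDup.dist7. Sex-linked genes separated the cultures too: Eif2s3y, on the Y chromosome, had 112 in MatDup.dist7, against 6.44 in PatDup.dist7, and Xist had 0.00166 in MatDup.dist7, against 91.2 in PatDup.dist7, so an effect of sex and one of genotype cannot be told apart. Of 12 fibroblast markers, 11 had an intensity above 66.4, the 50th percentile of all values, on at least 1 array.

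The members lay on both sides of 0, and 7 of the 50 (14%) were at least 2-fold apart, against 7.63% of all genes. On the MatDup.dist7 side stood Pax1, Foxc1 and Nkx3-2, and on the PatDup.dist7 side stood Emx2, Msx1, Pax3 and Shox2. Pax1, Nkx3-2 and Foxc1 are known from the sclerotome, the somite part that forms the vertebrae and ribs, as is Pax9, whose difference was -0.07. Emx2, Msx1 and Shox2 act in the limb bud, a field to which 25 of the 50 members were assigned, and Pax3 acts in the dermomyotome and the neural crest.

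Promoter windows are shown for 5 of the 7, as the annotated starts of genes on which the comparison turns. They are the 3 higher in MatDup.dist7 and the pair higher in PatDup.dist7 that had an intensity above 66.4 there. The rule was not the same on both sides, as Pax1 and Nkx3-2 lay under 66.4 on both arrays. Emx2 also had a window, which is not shown, and Pax3 had none. RefSeq windows on build GRCm38.p6 were found for 30 of the 50 members, as 32 windows of 250 bases ending just before an annotated start. The window of Pax1 is chr2:147364744-147364993 on the plus strand and that of Nkx3-2 is chr5:41764221-41764470 on the minus strand. That of Foxc1 is chr13:31806396-31806645 on the plus strand, that of Msx1 is chr5:37824586-37824835 on the minus strand and that of Shox2 is chr3:66981772-66982021 on the minus strand. Capitals mark matches, on either strand, to the CCAAT box (CCAAT), the GC box (GGGCGG) and the TATA box (TATAAA).
Pax1: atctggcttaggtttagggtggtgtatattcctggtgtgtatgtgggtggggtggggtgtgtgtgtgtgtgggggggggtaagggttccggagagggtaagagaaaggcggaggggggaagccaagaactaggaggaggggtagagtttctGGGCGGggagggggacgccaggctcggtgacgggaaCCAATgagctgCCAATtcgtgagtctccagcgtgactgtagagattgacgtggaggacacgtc
Nkx3-2: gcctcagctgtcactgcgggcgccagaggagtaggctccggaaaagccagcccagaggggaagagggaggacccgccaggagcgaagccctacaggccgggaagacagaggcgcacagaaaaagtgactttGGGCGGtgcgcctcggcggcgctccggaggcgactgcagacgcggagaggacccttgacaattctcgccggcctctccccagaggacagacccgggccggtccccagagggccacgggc
Foxc1: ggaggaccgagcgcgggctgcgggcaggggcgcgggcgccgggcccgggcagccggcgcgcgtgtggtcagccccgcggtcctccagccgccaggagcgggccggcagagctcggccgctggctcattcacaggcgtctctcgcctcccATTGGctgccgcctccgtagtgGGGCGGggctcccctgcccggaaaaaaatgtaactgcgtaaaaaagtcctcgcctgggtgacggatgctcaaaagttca
Msx1: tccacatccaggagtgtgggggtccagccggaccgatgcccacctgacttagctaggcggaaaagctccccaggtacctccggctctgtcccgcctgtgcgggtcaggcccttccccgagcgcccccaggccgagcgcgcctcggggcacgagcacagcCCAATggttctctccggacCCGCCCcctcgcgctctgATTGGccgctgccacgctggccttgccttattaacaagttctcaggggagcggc
Shox2: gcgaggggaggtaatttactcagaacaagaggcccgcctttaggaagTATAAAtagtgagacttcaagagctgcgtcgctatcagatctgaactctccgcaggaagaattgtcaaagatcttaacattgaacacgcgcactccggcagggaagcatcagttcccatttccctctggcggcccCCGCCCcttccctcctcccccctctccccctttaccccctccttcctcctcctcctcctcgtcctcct

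The window of Pax1 holds 2 CCAAT boxes and 1 GC box, and that of Msx1 also holds 2 and 1. Foxc1 has 1 of each, Nkx3-2 has 1 GC box only, and Shox2 has 1 GC box and 1 TATA box. Across the members' windows the CCAAT box was in 17 of 32 (53.1%), against 33.8% of all 32851 windows of this length. The GC box was in 21 of 32 (65.6%), against 32.7%, and the TATA box in 4 of 32 (12.5%), against 12.4%. Of 66 matches in the members' windows, 4 overlapped an earlier match. The median number of CpG dinucleotides per window was 15.5 in the members and 6 in all windows. Windows of Foxc1, Nkx3-2 and Msx1 held 29, 21 and 20 CpG, and those of Shox2 and Pax1 held 11 and 10. A CpG-rich start is well known for developmental regulators, and these letters describe the windows without showing binding.

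Over all 50 members, 24 differences were positive and 26 negative, with a median of -0.04 and a range from -1.72 to 1.97. The median over all 19938 genes was 0.02. Higher in MatDup.dist7 by at least 2-fold were 3 members (6%), against 4.47% of all genes, and higher in PatDup.dist7 by at least 2-fold were 4 members (8%), against 3.16% of all genes. After centring each array on its median the shares over all genes were 3.49% and 4.13%, while the members' counts stayed at 3 and 4. The shares over all genes correspond to 2.24 and 1.58 of 50 genes, so the first count is near the background and the second lies above it by a few genes at most. The absolute difference had a median of 0.40 over the members and 0.38 over all genes, and its 90th percentile was 1.27 over the members and 0.92 over all genes. No member changed sign under quantile normalisation or median centring, so the members' counts by direction below are the same on those scales. This does not extend to the shares of all genes by direction, the marker genes or the further patterning factors, which were not counted there. The median over all genes moved to -0.06 with median centring. Just inside the 2-fold rule stood Shox2 (-1.13), and just outside it stood Tbx20 (0.92), En1 (-0.85) and Pbx3 (-0.83).

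**Figure D1:**
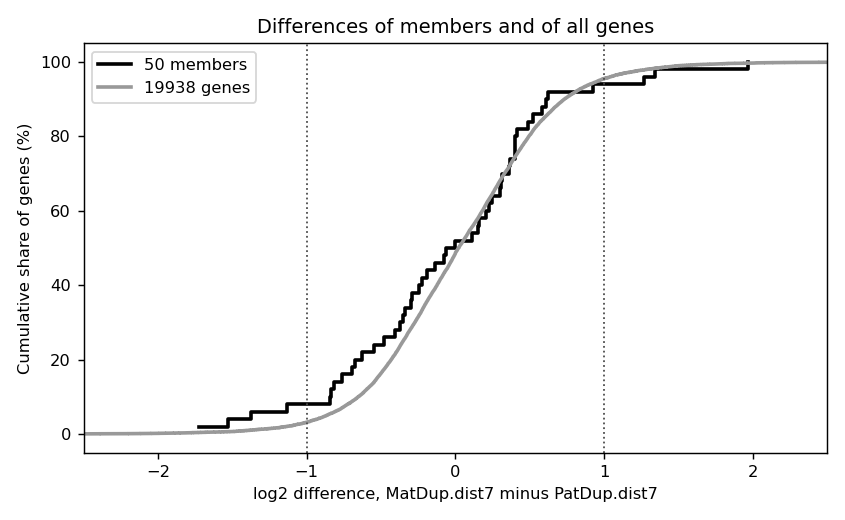
Cumulative share of genes (%) against the log2 difference, MatDup.dist7 minus PatDup.dist7, for the 50 members (black) and all 19938 genes (grey); dotted lines mark 2-fold. The members' curve lies above that of all genes at the lower end, where 4 members stand beyond -1.

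The members differed in signal level. On both arrays 36 members lay above the 50th percentile of all values, and 1 of these, Foxc1, was at least 2-fold apart (2.78%), against 1.63% of the 10435 genes above that level on both arrays. Another 3 members, Shox2, Msx1 and Nkx2-3, lay above it on the PatDup.dist7 array only. The remaining 11 lay under it on both arrays: Tbx20, Alx1, Pax1, Pax3, Pax7, Emx2, Nkx3-2, En1, Eya1, Hand2 and Gata4. Of the 7 members at least 2-fold apart, 4 are among these 11, so their values rest on weak signal.

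**Figure D2:**
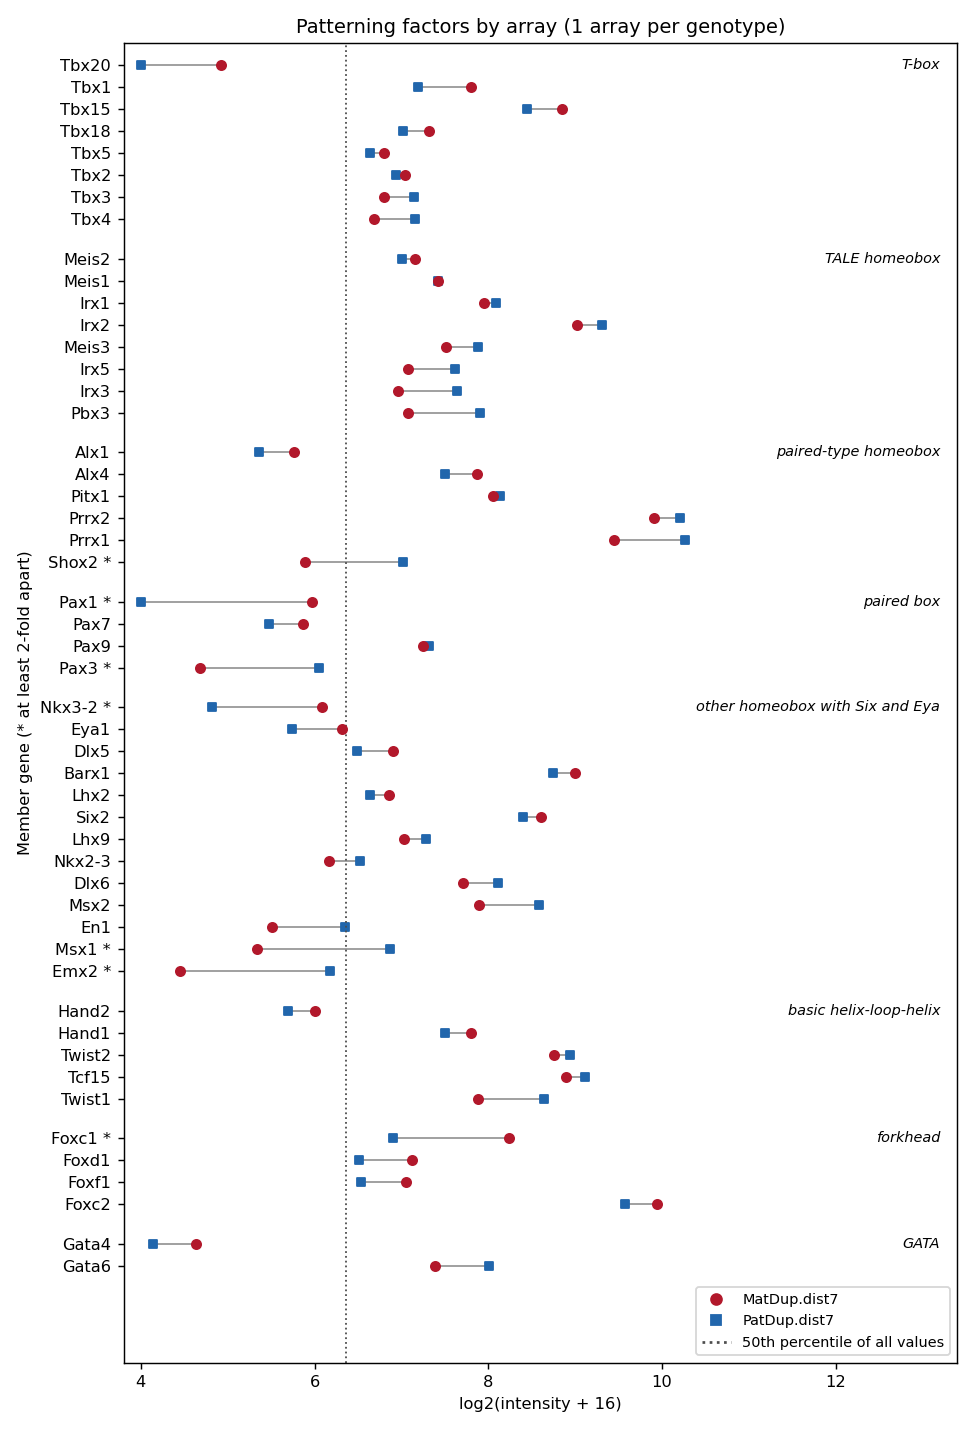
Level of each member, as log2(intensity + 16), on the MatDup.dist7 array (red circles) and the PatDup.dist7 array (blue squares), by family and ordered within a family by the difference; the dotted line is the 50th percentile of all values. Asterisks mark the 7 members at least 2-fold apart, of which Foxc1 is the one with both values right of the line.

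Among the T-box genes, which encode DNA-binding regulators of limb, heart and pharyngeal development, 6 of 8 (75%) were higher in MatDup.dist7, where 51.4% of all genes had a positive difference, and none was 2-fold apart. Their median difference was 0.23, against 0.02 for all genes. Tbx4, which drives hindlimb outgrowth, had 86.4 in MatDup.dist7, against 127 in PatDup.dist7 (-0.48), and Tbx5, its forelimb counterpart, had 95.3 in MatDup.dist7, against 83.6 in PatDup.dist7 (0.16). Pitx1, the homeobox gene that sets hindlimb type, had 249 in MatDup.dist7, against 264 in PatDup.dist7 (-0.08). The genes that set limb type thus lay within 2-fold, and both fore- and hindlimb genes were above the signal level on both arrays. Tbx2 and Tbx3 are repressors active at the limb margins. Tbx2 had 116 in MatDup.dist7, against 106 in PatDup.dist7 (0.11), and Tbx3 had 95.5 in MatDup.dist7, against 125 in PatDup.dist7 (-0.34). Tbx1, needed in the pharyngeal arches and affected in DiGeorge syndrome in people, had 207 in MatDup.dist7, against 130 in PatDup.dist7 (0.61). Tbx15, which acts in dermis and skeleton, had 443 in MatDup.dist7, against 332 in PatDup.dist7 (0.40). Tbx18, which acts in somite polarity, had 144 in MatDup.dist7, against 113 in PatDup.dist7 (0.31). Tbx20, a heart regulator, had 14.3 in MatDup.dist7, against 0.00194 in PatDup.dist7, and its difference of 0.92 became 3.94 with a pseudocount of 1 and 0.00 with the 25th percentile as a floor.

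The TALE homeobox genes, whose proteins include the Meis and Pbx cofactors of Hox proteins and the Iroquois factors, were mostly lower in MatDup.dist7. Of 8 members 7 had a negative difference, with a median of -0.33, while 48.6% of all genes had one. None was 2-fold apart, and only Pbx3, Irx3 and Irx5 went beyond the standard deviation of 0.43 between probe sets. The differences of the others, among them Meis1 at -0.01, were smaller than it. Pbx3, a Hox cofactor, had 119 in MatDup.dist7, against 224 in PatDup.dist7 (-0.83). Irx3 and Irx5 are adjacent genes on chromosome 8 that act together in the early limb bud. Irx3 had 108 in MatDup.dist7, against 183 in PatDup.dist7 (-0.68), and Irx5 had 119 in MatDup.dist7, against 181 in PatDup.dist7 (-0.55). Of the adjacent Irx1 and Irx2 on chromosome 13, Irx1 had 232 in MatDup.dist7, against 257 in PatDup.dist7 (-0.14), and Irx2 had 502 in MatDup.dist7, against 618 in PatDup.dist7 (-0.29). Meis1 and Meis2 mark the proximal limb. Meis1 had 155 in MatDup.dist7, against 156 in PatDup.dist7 (-0.01), and Meis2, the exception in the family, had 126 in MatDup.dist7, against 112 in PatDup.dist7 (0.15). Meis3 was the only member on chromosome 7 and had 167 in MatDup.dist7, against 220 in PatDup.dist7 (-0.37). Its promoter window is chr7:16175145-16175394, and it was not counted as a gene of the duplicated distal part, whose borders were not examined.

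The paired-type homeobox genes lay on both sides of 0. Of 6 members 4 were lower in MatDup.dist7 (66.7%), against 48.6% of all genes, with a median of -0.19, and Shox2 was the only one 2-fold apart. Prrx1, which marks early limb bud mesenchyme and fibroblasts, had 683 in MatDup.dist7, against 1215 in PatDup.dist7 (-0.82), and its paralog Prrx2 had 942 in MatDup.dist7, against 1163 in PatDup.dist7 (-0.30). Shox2, needed for the proximal limb skeleton, had 43.2 in MatDup.dist7, against 114 in PatDup.dist7 (-1.13). Alx4, which acts in the anterior limb bud, had 217 in MatDup.dist7, against 166 in PatDup.dist7 (0.36). Alx1, which acts in the frontonasal mesenchyme, had 38.4 in MatDup.dist7, against 25.2 in PatDup.dist7 (0.40). Genes of limb mesenchyme within this family thus differed in both directions, and the remaining member, Pitx1, is given above.

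Of the 13 other homeobox members, counted with the cofactor Eya1, 7 were lower in MatDup.dist7 (53.8%), near the 48.6% of all genes, with a median of -0.25. Emx2 and Msx1 were 2-fold lower and Nkx3-2, described with the somite genes, was 2-fold higher. Msx1, a BMP-responsive repressor that keeps mesenchyme undifferentiated, had 24.5 in MatDup.dist7, against 101 in PatDup.dist7 (-1.53). Msx2, its paralog, had 222 in MatDup.dist7, against 368 in PatDup.dist7 (-0.69). Emx2, required for the scapula and the urogenital system, had 5.91 in MatDup.dist7, against 56.4 in PatDup.dist7 (-1.72). En1, which specifies ventral limb ectoderm and also acts in a dermal lineage, had 29.4 in MatDup.dist7, against 65.5 in PatDup.dist7 (-0.85). Its difference went beyond 2-fold when the pseudocount was 1 (-1.13) or a floor was set at the 25th percentile (-1.16). Lhx2 and Lhx9, which share a role in limb outgrowth, lay on opposite sides of 0. Lhx2 had 100.04 in MatDup.dist7, against 83.4 in PatDup.dist7 (0.22), and Lhx9 had 115 in MatDup.dist7, against 139 in PatDup.dist7 (-0.25). So did the adjacent Dlx5 and Dlx6, regulators of jaw, limb ectoderm and bone. Dlx5 had 103 in MatDup.dist7, against 73.6 in PatDup.dist7 (0.41), while Dlx6 had 193 in MatDup.dist7, against 261 in PatDup.dist7 (-0.40). Barx1, a gene of the jaw and stomach mesenchyme, had 493 in MatDup.dist7, against 413 in PatDup.dist7 (0.25). Six2, a gene of nephron progenitors and head mesenchyme, and Eya1, a cofactor of such homeobox proteins, were both on the MatDup.dist7 side. Six2 had 374 in MatDup.dist7, against 323 in PatDup.dist7 (0.21), and Eya1 had 63.5 in MatDup.dist7, against 37.3 in PatDup.dist7 (0.58). Nkx2-3, a gene of spleen and gut mesenchyme, had 55.8 in MatDup.dist7, against 75.8 in PatDup.dist7 (-0.35).

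Somite genes differed in both directions. Pax1, a paired box gene of the sclerotome, had 46.7 in MatDup.dist7, against 0.00740 in PatDup.dist7 (1.97). So low a value is no proof that the transcript was absent, and the difference ran from 0.79 with a pseudocount of 64 to 5.56 with a pseudocount of 1. Pax9, its paralog with a shared role in the sclerotome, had 136 in MatDup.dist7, against 143 in PatDup.dist7 (-0.07). Nkx3-2, a homeobox gene downstream of Pax1 and Pax9 in the mouse sclerotome, had 51.6 in MatDup.dist7, against 12.1 in PatDup.dist7 (1.27). Pax3, which marks dermomyotome, migrating muscle precursors and neural crest, had 9.57 in MatDup.dist7, against 50.2 in PatDup.dist7 (-1.37), whereas Pax7, its paralog, had 42.4 in MatDup.dist7, against 28.3 in PatDup.dist7 (0.40). Within both Pax pairs the differences thus had opposite signs, although that of Pax9 was smaller than the standard deviation of 0.43 between probe sets. Pax7 also had a difference below 0.43, but it lay under the signal level on both arrays, where that standard deviation does not apply.

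Markers of several cell types differed between the cultures as well, and their counts stand against 51.4% of all genes higher and 48.6% lower in MatDup.dist7. Past 2-fold, 4.47% of all genes were higher and 3.16% lower in MatDup.dist7. Of 10 cartilage markers 8 (80%) were higher in MatDup.dist7, 2 of them at least 2-fold (20%), with a median difference of 0.67. Under the signal level on both arrays lay 4 of the 10, among them Comp, 1 of the 2 past 2-fold. Their summed intensity was 2045 in MatDup.dist7, against 1083 in PatDup.dist7. Col2a1, the main cartilage collagen, had 599 in MatDup.dist7, against 141 in PatDup.dist7. Of 8 skeletal muscle markers 6 (75%) were lower in MatDup.dist7 and none was 2-fold apart, with sums of 3117 in MatDup.dist7, against 2835 in PatDup.dist7. Myf5, an early muscle regulator, had 5.17 in MatDup.dist7, against 21.1 in PatDup.dist7 (-0.81). Both values lay under the 25th percentile that served as a floor. The 6 muscle markers above the signal level on both arrays differed in both directions. Acta1 (0.45) and Myog (0.19) were higher in MatDup.dist7. Des (-0.75), Myod1 (-0.27), Tnnt1 (-0.24) and Actc1 (-0.06) were lower there. Of 8 epithelial markers 7 (87.5%) were higher in MatDup.dist7, 2 of them at least 2-fold (25%), with sums of 863 in MatDup.dist7, against 483 in PatDup.dist7. Under the signal level on both arrays lay 2 of the 8, among them Krt5, 1 of the 2 past 2-fold.

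Of 6 neural and glial markers measured, 4 (66.7%) were higher in MatDup.dist7, with a median difference of 0.62 and sums of 1762 in MatDup.dist7, against 733 in PatDup.dist7. Stmn2, a neuronal microtubule regulator and the only one of them 2-fold apart, had 755 in MatDup.dist7, against 73.7 in PatDup.dist7. It thus weighs heavily in the MatDup.dist7 sum. Map2 (-0.22) and Gfap (-0.16) were lower in MatDup.dist7. Under the signal level on both arrays lay 2 of the 6, Gfap and Elavl3. Sox10, a neural crest and glial gene, had 124 in MatDup.dist7, against 65.01 in PatDup.dist7 (0.79), the side opposite to Pax3. Of 12 fibroblast markers 9 (75%) were lower in MatDup.dist7, the side of Prrx1, with sums of 42625 in MatDup.dist7, against 49468 in PatDup.dist7. Dcn, a matrix proteoglycan and the only one of them 2-fold apart, had 142 in MatDup.dist7, against 592 in PatDup.dist7 (-1.95). Of 9 macrophage markers 6 (66.7%) were lower in MatDup.dist7, with sums of 5528 in MatDup.dist7, against 6326 in PatDup.dist7. Of 5 endothelial markers 3 (60%) were lower, with sums of 285 in MatDup.dist7, against 310 in PatDup.dist7. Under the signal level on both arrays lay 4 of these 5, all but Pecam1 (-0.03). No marker of these lists had a value under 1. The part of these cell types in the members' differences was not tested.

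The 4 forkhead members were all higher in MatDup.dist7, with a median of 0.57, where 51.4% of all genes had a positive difference. Foxc1, needed for somites, skull and eye, had 286 in MatDup.dist7, against 104 in PatDup.dist7 (1.34), and it was the one member past 2-fold in all 7 alternative treatments of the values, where it ran from 1.06 to 1.47. Of these treatments, keeping only genes above the signal level and taking the brightest probe set cannot change its value, as Foxc1 has 1 probe set. Foxc2, its paralog, had 968 in MatDup.dist7, against 747 in PatDup.dist7 (0.37). Foxd1, a gene of kidney stroma and of limb and trunk mesenchyme, had 124 in MatDup.dist7, against 74.9 in PatDup.dist7 (0.62). Foxf1, a gene of visceral mesoderm, was the only member with more than 1 probe set. The brighter probe set had 322 in MatDup.dist7, against 282 in PatDup.dist7 (0.18), and the weaker had 36.4 in MatDup.dist7, against 13.0 in PatDup.dist7 (0.85), which gives a mean difference of 0.52. The coding genes beside Foxc1 on chromosome 13 differed in both directions: Foxf2 and Foxq1 on one side had differences of 0.52 and 0.53, and Gmds and Mylk4 on the other had -0.42 and 0.67.

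The basic helix-loop-helix and GATA genes stayed within 2-fold. Twist1, which keeps mesenchyme undifferentiated and acts in head and limb, had 220 in MatDup.dist7, against 383 in PatDup.dist7 (-0.76), and Twist2 had 416 in MatDup.dist7, against 476 in PatDup.dist7 (-0.19). Hand1, a regulator of heart and extraembryonic mesoderm, had 206 in MatDup.dist7, against 165 in PatDup.dist7 (0.30). Hand2, a regulator of heart and posterior limb bud, had 48.3 in MatDup.dist7, against 35.6 in PatDup.dist7 (0.32). Tcf15, a gene of somite epithelium, had 458 in MatDup.dist7, against 538 in PatDup.dist7 (-0.23). Gata6, an endoderm and heart regulator, had 151 in MatDup.dist7, against 242 in PatDup.dist7 (-0.63), whereas Gata4 had weak values of 8.77 in MatDup.dist7, against 1.66 in PatDup.dist7 (0.49).

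The members were also counted by a territory of the embryo, each gene in a single one although many act in several. Of 25 limb bud genes 17 (68%) were lower in MatDup.dist7, against 48.6% of all genes. In this group 3 were at least 2-fold lower (12%), against 3.16% of all genes, none was 2-fold higher, and the median was -0.30. Of those past 2-fold, Emx2 lay under the signal level on both arrays, and Msx1 and Shox2 on the MatDup.dist7 array. Of 12 somite genes 7 (58.3%) were higher in MatDup.dist7, near the 51.4% of all genes. Of these 12, 3 were at least 2-fold higher (25%), against 4.47% of all genes, Pax3 was 2-fold lower, and the median was 0.29. Under the signal level on both arrays lay 5 of the 12, among them Pax1, Nkx3-2 and Pax3, so of the somite genes past 2-fold only Foxc1 was above it. All 3 head and pharyngeal arch genes were higher in MatDup.dist7 (median 0.40), as were 5 of 7 visceral mesoderm genes (71.4%, median 0.49), none of them 2-fold apart. These medians are the values of Alx1 and Gata4, which lay under the signal level on both arrays. Gata4 and Tbx20, both visceral mesoderm genes, had a difference of 0.00 with the 25th percentile as a floor. The 3 limb type genes had a median of -0.08. Six2 and Twist1 were counted here as somite genes and Tbx18 as a limb bud gene, although other territories would serve as well. With Six2 and Twist1 moved to the head genes and Tbx18 to the somite genes, 17 of 24 limb bud genes were lower (median -0.32), 7 of 11 somite genes were higher (median 0.37) and 4 of 5 head genes were higher (median 0.25). The territories were assigned after the values were seen, and a difference between them was not tested.

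**Figure D3:**
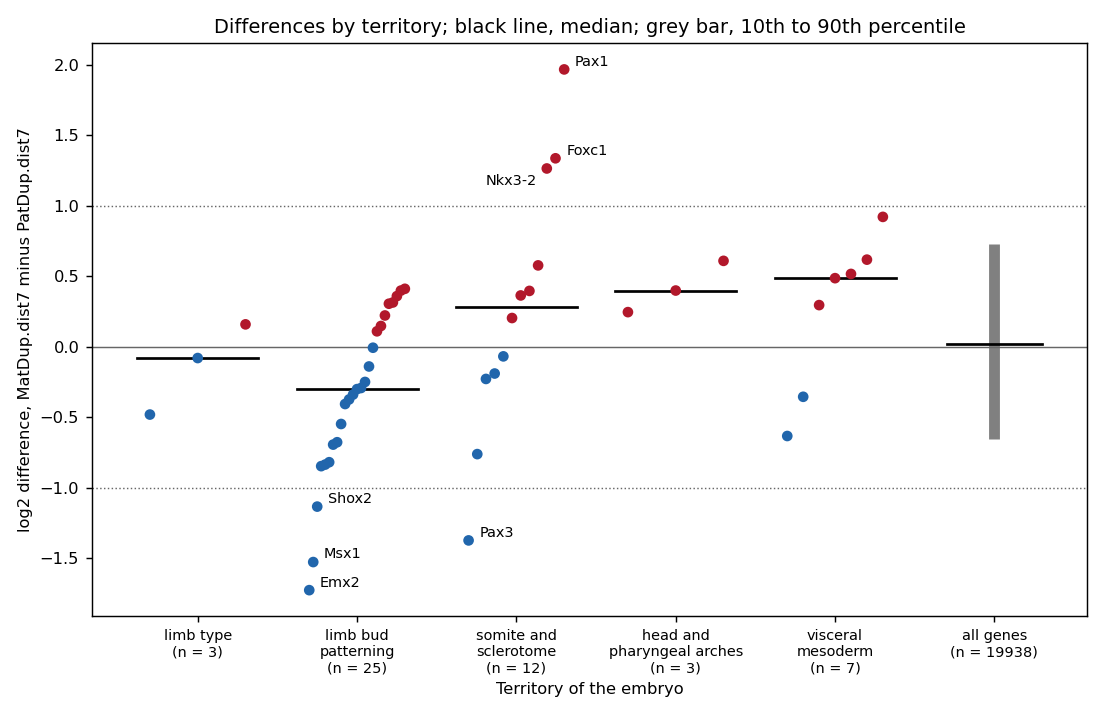
Log2 difference, MatDup.dist7 minus PatDup.dist7, of each member by territory, spread sideways by rank (red, higher in MatDup.dist7; blue, higher in PatDup.dist7), with the median as a black line; the grey bar spans the 10th to 90th percentile of all 19938 genes. The limb bud median lies at -0.30 and the somite median at 0.29.

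Position on the chromosomes was not used to choose the members, which lie on 18 chromosomes. Of 6 pairs of chromosome neighbours, 3 had differences of the same sign: Irx1 with Irx2, Irx3 with Irx5, and Foxf1 with Foxc2, which have 1 coding gene between them. The other 3, Tbx2 with Tbx4, Tbx3 with Tbx5 and Dlx5 with Dlx6, had opposite signs. Of 17 paralog pairs 10 had the same sign. The gap within a pair had a median of 0.33 for neighbours and 0.52 for paralogs, and it was widest for Pax1 with Pax9 (2.04) and Pax3 with Pax7 (1.77). Signs and gaps of unrelated gene pairs were not counted, so these values have no background beside them. With 51.4% of all genes positive and 48.6% negative, unrelated genes would often share a sign too. A difference between neighbours and paralogs was not tested. The genes around the 7 members that were 2-fold apart were also read. None of 28 measured protein-coding neighbours, 2 on each side of each member, was 2-fold apart, where 7.63% of all genes were, a share that amounts to about 2 of 28. They ranged from -0.84 for Stx18 beside Msx1 to 0.76 for Stk32b, also beside Msx1.

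**Figure D4:**
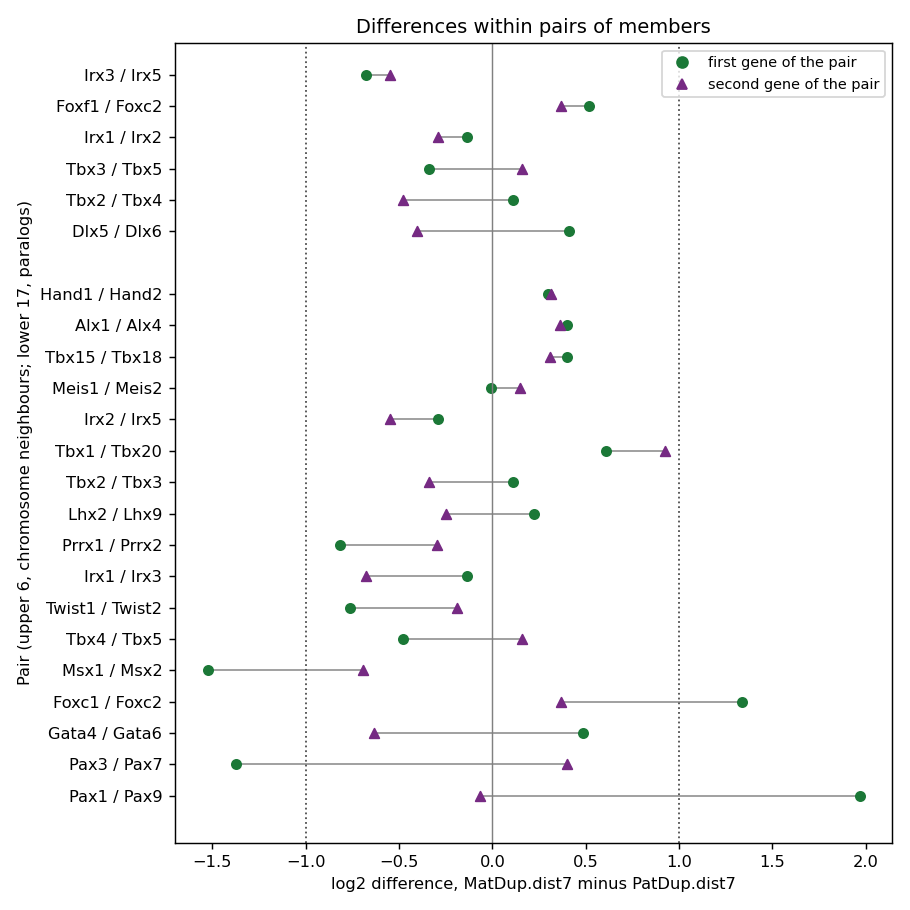
Log2 difference, MatDup.dist7 minus PatDup.dist7, of the first gene (green circle) and second gene (purple triangle) of 6 neighbouring pairs (top) and 17 paralog pairs (bottom), each block ordered by the gap; dotted lines mark 2-fold. The Pax1 with Pax9 and Pax3 with Pax7 pairs at the bottom span 2.04 and 1.77.

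Of 96 further patterning factors of the same families and fields, 85 were measured. Of these, 57 (67.1%) were higher in MatDup.dist7, against 51.4% of all genes, with a median difference of 0.24, above the 0.02 of all genes. At least 2-fold higher in MatDup.dist7 were 6 (7.06%), against 4.47% of all genes, and at least 2-fold lower were 3 (3.53%), against 3.16%. Of these 9, 3 lay above the signal level. Zic1, a zinc finger gene of the dorsal neural tube and somites, had 116 in MatDup.dist7, against 39.3 in PatDup.dist7 (1.25). Tfap2a, a gene of neural crest and surface ectoderm, had 18.1 in MatDup.dist7, against 97.1 in PatDup.dist7 (-1.73), and Gata3 had 47.7 in MatDup.dist7, against 115 in PatDup.dist7 (-1.04). Of the hedgehog effectors, Gli1 and Gli2 had differences of 0.55 and 0.80 and Gli3 had -0.42.

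The size of the members' differences depended on the treatment of low values. Raising the pseudocount to 64 left Foxc1 as the only member past 2-fold, while the sizes for Pax1, Nkx3-2, Emx2, Pax3, Shox2 and Msx1 fell to between 0.60 and 0.90. The shares over all genes were then 0.466% higher in MatDup.dist7 and 0.401% higher in PatDup.dist7. Lowering it to 1 gave 5 members in each direction, adding Gata4 and Tbx20 on the MatDup.dist7 side and En1 on the PatDup.dist7 side. At that setting 10.9% of all genes were higher in MatDup.dist7 by 2-fold and 8.55% in PatDup.dist7.

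**Figure D5:**
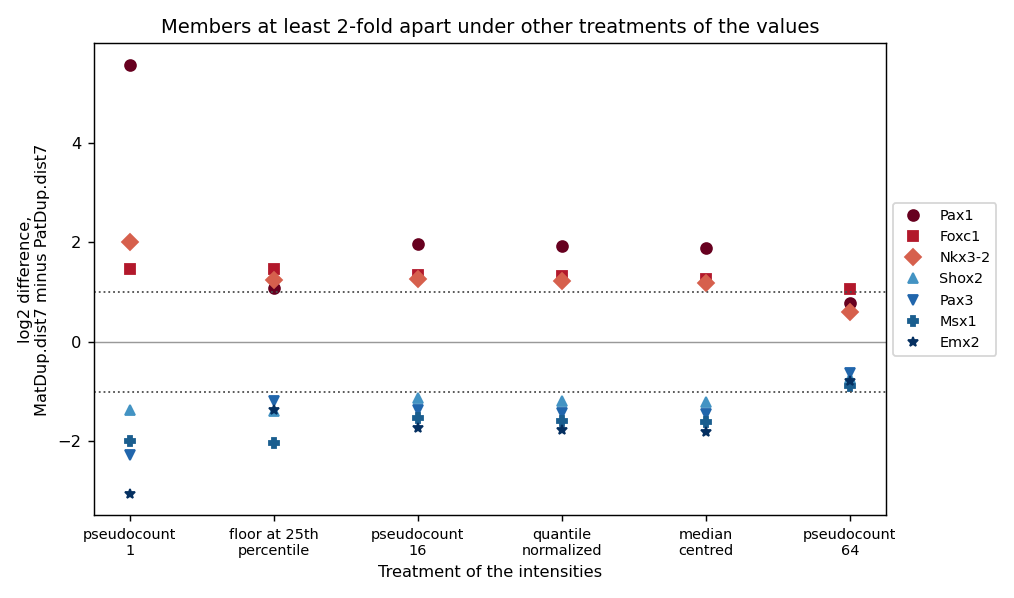
Log2 difference, MatDup.dist7 minus PatDup.dist7, of the 7 members at least 2-fold apart under 6 treatments of the intensities; dotted lines mark 2-fold. With a pseudocount of 64 only Foxc1 stays beyond the lines, and Pax1 reaches 5.56 with a pseudocount of 1.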

How the data were processed

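Biotin-labelled sense target was made from total RNA of MatDup.dist7 and PatDup.dist7 MEFs with an Affymetrix whole-transcript assay, per the labels' protocols, and hybridised to 1 array per genotype. The deposited intensity values are linear, 1 per probe set and array, with a median of 68.6 for MatDup.dist7, against 64.2 for PatDup.dist7. Affymetrix Expression Console was used, per the submitters' processing notes. The sources used here do not say how it corrected, summarised or normalised the signals.

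Of 35557 probe sets, 21789 had 1 platform gene symbol, 1621 several and 12147 none. Only the first were used, and 21698 were matched by gene identifier to RefSeq genes of GRCm38.p6. Values were taken as log2(intensity + 16) and averaged over the probe sets of a gene (pandas 2.3.3, numpy 2.4.6). With no replicates, no test was made and 2-fold was the rule of size. The signal level was the 50th percentile of all values, an intensity of 66.4. The calculation was tested on simulated arrays. Alternatives were pseudocounts of 1 and 64, a floor at the 25th percentile, quantile normalisation, median centring, the signal filter, the brightest probe set per gene, a 3-fold rule and, added later, another placing of 3 genes among the territories. Every member was named or counted. Of the other patterning factors, those at least 2-fold apart above the signal level were to be named (up to 6 in each direction); the Gli genes, the marker genes given as examples and the chromosome neighbours were chosen after their values were seen. Members and lists were chosen with earlier results of these data known. The division into territories and paralog pairs, the motifs and the promoter windows shown were set after the values were seen.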

Additional observations from a re-analysis of the deposited data

How the results depend on the processing

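With 1 array per genotype the results depend on the treatment of low signals and not on replicates, which could not be left out. No paired analysis was possible because each genotype has 1 array and no test was made. All 50 members kept the sign of their difference, or reached 0, in every alternative that gave it a value, 6 or 7 per gene. For the 49 members with 1 probe set, most of this was fixed in advance. A pseudocount or a floor cannot reverse their sign, and the signal filter and the brightest probe set leave their value unchanged. Only quantile normalisation and median centring could have reversed it. At least 2-fold apart were 3 members on the MatDup.dist7 side and 4 on the PatDup.dist7 side, and these counts were the same with quantile normalisation, median centring and the brightest probe set. The shares over all genes were 4.47% and 3.16% in the main setting, and 3.88% and 3.7% with quantile normalisation. A pseudocount of 1 gave 5 and 5 of the 50 members, against 10.9% and 8.55% of all genes. A pseudocount of 64 gave 1 and 0, against 0.466% and 0.401%, and the floor gave 3 and 5, against 5.13% and 3.92%. There were 1 and 2 among the 39 members above the signal filter (2.56% and 5.13%), against 2.74% and 2.42% of all genes above it. A 3-fold rule gave 1 and 1, against 0.818% and 0.552% of all genes. The filter and the stricter rule can only lower a count. The median difference of the members was -0.14 above the signal filter and -0.11 with median centring, which moved all genes to -0.06. Of 339 values for single members under an alternative, 10 crossed the 2-fold line and 329 did not. Some of the 329 could not have crossed it, because the signal filter changes no value and the brightest probe set changes only Foxf1. Moving Six2, Twist1 and Tbx18 to other territories, an alternative chosen after seeing the data, raised the head genes lower in MatDup.dist7 to 1, against 0 with the first placing, and moved no other territory count by more than 1 gene. Weak signal limits Pax1, Pax3, Emx2 and Nkx3-2, which lie under the signal level on both arrays.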
